A study of Mus musculus with 4 samples.

Results

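Pkp2, which encodes the desmosomal plaque protein plakophilin 2, was read at a mean of 78.9 ± 4.63 CPM (SD, n = 2) in WT mouse macrophages and at 1.61 ± 0.380 CPM (SD, n = 2) in macrophages labelled G3bp1mac-/- (KO). CPM are counts relative to a library's total, put on a common scale by division by that total and scaled between libraries by the trimmed mean of M-values (TMM). Pkp2 and 7 other genes of the desmosome and of the plakophilin family (Pkp1, Pkp3, Pkp4, Dsp, Jup, Dsg2 and Dsc2) were examined out of 34745 genes in all. The set was selected on the KO against WT difference of Pkp2, which was nearly lost in both KO libraries, so the KO against WT values of the 8 genes are given as a description, and no p-value is given for them. All 8 genes were listed, 4 of them (Pkp2, Pkp4, Jup and Dsg2) passed the filter on low counts, Pkp3 and Dsp did not, and Pkp1 and Dsc2 had no count in any library.

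Total RNA of cultured C57BL/6J macrophages, bone marrow-derived per the study, was sequenced in 4 libraries. The WT libraries 1 and 2 came from mice with a floxed G3bp1 gene (G3bp1 f/f) and the KO libraries 1 and 2 from G3bp1 f/f mice that carried Cre under the Lyz2 promoter, which is active in monocytes, macrophages and granulocytes. Both genotypes thus carried the floxed allele, and no stimulus is named for these libraries. The sources used here do not give the number of animals per library or say that the 2 libraries of a genotype came from separate animals, so all errors and p-values measure only the spread between these libraries.

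Desmosomes are patch-like junctions that tie the intermediate filaments of neighbouring cells together, and they are best known from epithelia and heart muscle. Their cadherins, the desmogleins (Dsg) and desmocollins (Dsc), bind plakoglobin (Jup) and the plakophilins in a plaque under the membrane, and desmoplakin (Dsp) links this plaque to the filaments. Plakophilins 1 to 3 belong to the armadillo repeat proteins and also occur away from junctions, where plakophilins 1 and 3 were found with RNA-binding proteins such as G3BP1, FXR1 and PABPC1 and in stress granules. Plakophilin 4 is a relative of p120 catenin that is found at adherens junctions.

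Library totals were between 16724241 and 19747909 counts, with 15468 to 16031 genes detected per library. Where a gene had 0 counts, counting error alone allowed 3 counts, or 0.152 to 0.188 CPM depending on the library. The first principal component (57.4% of the variance) separated the libraries numbered 1 from those numbered 2, and the next (34.3%) separated the genotypes. The targeted gene G3bp1 had counts of 1691 and 2875 in WT and of 1307 and 2296 in KO, a mean of 142 ± 53.8 against 93.3 ± 32.9 CPM (SD, n = 2 each) or 65.6% of the WT level. Its groups overlapped, the libraries numbered 2 being the higher ones in both genotypes, and by replicate number the log2 ratio was -0.57 and -0.63. Counts per gene do not show which exons were read, so a deleted stretch of G3bp1 was not visible. The 10 macrophage markers were all tested, with a median log2 fold change of -0.17. Their summed level of 26760 and 25120 CPM in WT and of 21490 and 25210 CPM in KO was mostly that of Lyz2 (21850, 18660, 16860 and 19480 CPM). Of the others, Itgam was higher in both KO libraries (log2 fold change 0.82, SE 0.312) and Cd68 lower in both (log2 fold change -0.18, SE 0.176). Of the 12 epithelial markers, Krt5, Cldn4 and Esrp1 had no count in any library, Epcam had 2 and 3 counts in WT and none in KO, and Krt8 (32, 34, 17 and 37 counts over WT 1, WT 2, KO 1 and KO 2), Krt18 and Krt19 (37, 25, 51 and 37) were read at low levels. Of the 7 endothelial markers, Tek, Emcn and Cldn5 had no count, and Kdr (87, 38, 114 and 39 counts), Pecam1 (9, 17, 13 and 7) and Cdh5 (7, 14, 6 and 9) were read.

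Of the desmosomal plakophilins, plakophilin 2 is the one with the widest known tissue range. Pkp2 (ENSMUSG00000041957, plus strand of chr16:16213318-16272712, GRCm38) spans 13 exons in its principal transcript. Its counts were 1333 in WT 1, 1205 in WT 2, 25 in KO 1 and 37 in KO 2, or 82.1, 75.6, 1.34 and 1.88 CPM. The 2 WT libraries lay close together and both KO libraries lay far below them, with no overlap. The exact Poisson 95% intervals, which cover counting error only, were 77.8 to 86.7 and 71.4 to 80.0 CPM in WT and 0.868 to 1.98 and 1.32 to 2.59 CPM in KO.

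The KO mean of Pkp2 was 2.04% of the WT mean, a 49.0-fold lower level, and the fitted log2 fold change was -5.61 (SE 0.314). Taken by replicate number, the log2 ratio was -5.94 for the libraries numbered 1 and -5.33 for those numbered 2. In these bulk libraries, fewer Pkp2-expressing cells and less Pkp2 RNA per cell cannot be told apart. Among the 8026 tested genes with a WT mean of at least 10 CPM, Pkp2 had the lowest fold change, and it ranked as number 5 from the bottom of all 12418 tested genes. The next lowest of these 8026 genes was Col23a1, which encodes a transmembrane collagen, at 9.53% of its WT mean (174 and 189 counts in WT, 24 and 17 in KO). It was followed by Cdk5rap1, an enzyme that modifies mitochondrial tRNA, at 14.2% (500 and 227 counts in WT, 58 and 65 in KO).

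To compare genes with each other, the authors' FPKM were used, which divide the count by the gene length and by the library total. Pkp2 stood at 12.8 and 11.7 FPKM in WT, above 82.9% and 80.7% of the genes with a count in that library. In KO it stood at 0.245 and 0.307 FPKM, above 24.95% and 29.3%. On the per-length scale Pkp2 was thus among the more abundant expressed genes in WT and among the less abundant ones in KO.

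**Figure D1:**
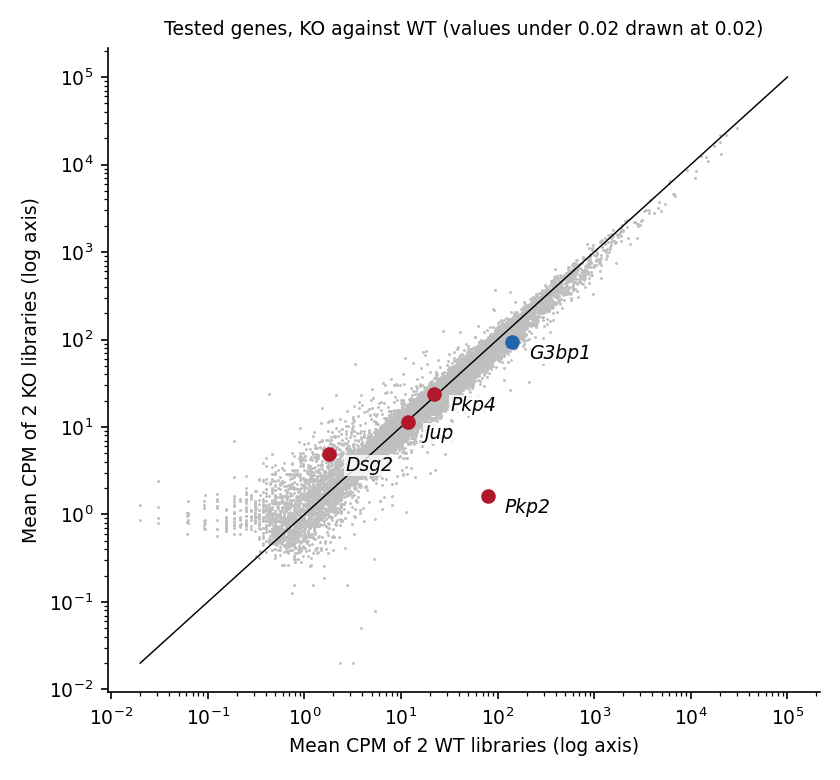
Mean CPM of the 2 KO libraries (vertical, log axis) against the mean CPM of the 2 WT libraries (horizontal, log axis) for the 12418 tested genes (grey), with the 4 tested desmosomal genes in red, G3bp1 in blue and the line of equal levels. Pkp2 lies far under the line at 78.9 against 1.61 CPM, Pkp4 and Jup lie on it, and Dsg2 lies above it at 1.80 against 4.88 CPM.

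The other plakophilins were read next to Pkp2. Pkp4 (plus strand of chr2:59160850-59355208, 22 exons) had counts of 206 and 497 in WT and of 321 and 596 in KO, or 12.7, 31.2, 17.2 and 30.3 CPM. The libraries numbered 2 were the high ones in both genotypes, and the genotypes overlapped. WT averaged 21.9 ± 13.1 CPM and KO 23.7 ± 9.22 CPM (SD, n = 2 each), with a log2 fold change of 0.11 (SE 0.510). The sign of this value turned when WT replicate 1 or KO replicate 2 was left out (-0.39 and -0.35).

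Pkp3 (plus strand of chr7:141078218-141090510, 13 exons), the plakophilin of stratified and simple epithelia, had 13 and 9 counts in WT 1 and WT 2 and 6 and 10 in KO 1 and KO 2. The filter on low counts scales its minimum count to library depth, and too few libraries reached it for Pkp3 to be tested. Scaled to the library totals, the KO values (0.322 and 0.508 CPM) lay just below the WT values (0.801 and 0.564 CPM), while the counts overlapped. Pkp1 (minus strand of chr1:135871395-135919207), which is mainly known from the upper layers of stratified epithelia, had no count.

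With FPKM summed over the 4 plakophilin genes, Pkp2 made up 91.6% of the sum in WT 1 and 81.4% in WT 2, and 12.3% in KO 1 and 10.1% in KO 2. The share of Pkp4 was 7.64% and 18.1% in WT and 85.2% and 87.6% in KO. The summed plakophilin level was 14.01 and 14.3 FPKM in WT and 1.99 and 3.04 FPKM in KO. Pkp2 was thus the predominant plakophilin transcript of both WT libraries and Pkp4 that of both KO libraries, while the level of Pkp4 itself overlapped between the genotypes.

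**Figure D2:**
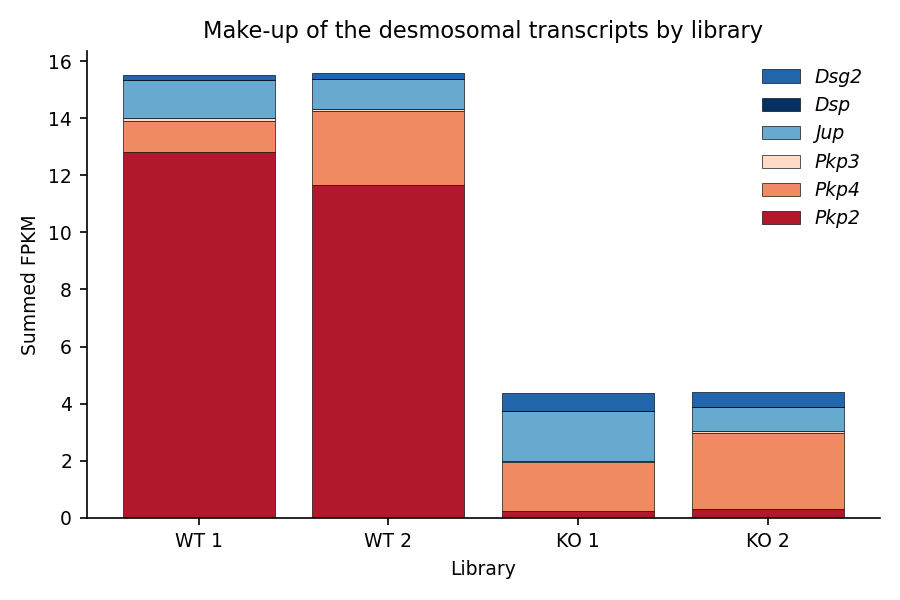
Summed FPKM of the desmosomal genes in each of the 4 libraries, one bar per library with one coloured block per gene (Pkp1 and Dsc2 had no count). The bars reach 15.5 and 15.6 FPKM in WT and 4.37 and 4.43 FPKM in KO, and the red Pkp2 block fills most of the WT bars and little of the KO bars.

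Plakoglobin is the armadillo protein that desmosomes share with adherens junctions. Jup (minus strand of chr11:100368958-100397763, 14 exons) had 210 and 167 counts in WT 1 and WT 2 and 274 and 156 in KO 1 and KO 2, or 12.9, 10.5, 14.7 and 7.92 CPM. KO 1 was the highest and KO 2 the lowest of the 4 libraries, so the WT values lay between those of KO. WT averaged 11.7 ± 1.74 CPM and KO 11.3 ± 4.79 CPM (SD, n = 2 each), with a log2 fold change of -0.05 (SE 0.376) and a sign that differed between replicate numbers (0.18 and -0.40). Dsp (plus strand of chr13:38151328-38198577, 24 exons), which encodes the link from the plaque to the intermediate filaments, had 1 count in WT 1 and none elsewhere. Transcripts of this obligate linker were therefore not detectable at this depth in 3 of the 4 libraries and at the level of a single count in WT 1.

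Of the desmosomal cadherins, desmoglein 2 is the one expressed most widely, beyond stratified epithelia. Dsg2 (plus strand of chr18:20558074-20604521, 15 exons) had 27 and 31 counts in WT 1 and WT 2 and 93 and 94 in KO 1 and KO 2, or 1.66, 1.94, 4.99 and 4.77 CPM. Each KO value exceeded each WT value, and the values of a genotype lay close together. WT averaged 1.80 ± 0.199 CPM and KO 4.88 ± 0.152 CPM (SD, n = 2 each), with a log2 fold change of 1.43 (SE 0.326). The antisense gene Gm16090, which overlaps Dsg2, had no count. Dsc2 (minus strand of chr18:20030633-20059554), its desmocollin partner in simple epithelia and heart, had no count in any library.

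The summed level of the 10 stromal cell markers was higher in KO alongside Dsg2. It was 75.4 and 88.7 CPM in WT and 328 and 302 CPM in KO. Of the 9 stromal markers tested, 7 had both KO libraries above both WT libraries with a log2 fold change over 1. Over all tested genes, 5.18% did so. The median log2 fold change of the markers was 2.08 against 0.041 over all tested genes. Pdgfra, a receptor of fibroblasts and other mesenchymal cells, had 229 and 321 counts in WT 1 and WT 2 and 1320 and 1448 in KO 1 and KO 2, Col1a1 (collagen I) had 30 and 28 against 277 and 164, Col1a2, the other chain of collagen I, had 161 and 190 against 1317 and 1016, and Cxcl12, a chemokine of marrow stroma, had 24 and 16 against 151 and 151. Lepr, which marks marrow stromal cells, had 3 counts in WT 1 and none elsewhere. The part of stromal cells in the level of Dsg2 was not tested. The 12 epithelial markers, of which 5 were tested, summed to 7.45 and 7.78 CPM in WT and 5.52 and 6.14 CPM in KO, and the 7 endothelial markers to 6.65 and 4.70 against 7.67 and 2.79 CPM.

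With the limits set at 0.05 for the adjusted p of edgeR's quasi-likelihood test and at 1 for the absolute log2 fold change, 0 of all 12418 tested genes (0.0%), and so none of the set, were called, with 823 genes at an unadjusted p under 0.05 (576 higher and 247 lower in KO). At the same limits, the DESeq2 Wald test called 1.46% of all tested genes, the edgeR exact test 1.84% and the quasi-likelihood test with a replicate block 5.35%. The KO values in CPM both exceeded the WT values in 20.0% of the tested genes, and both fell short of them in 16.9%. With an absolute log2 fold change over 1 as well, these shares were 5.18% and 1.59%. Calls of the set by these other fits are not given, since this contrast chose it, and nothing is read from its counts. Of its 4 tested genes, Dsg2 was above and Pkp2 below, each past this fold, and Pkp4 and Jup overlapped.

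**Figure D3:**
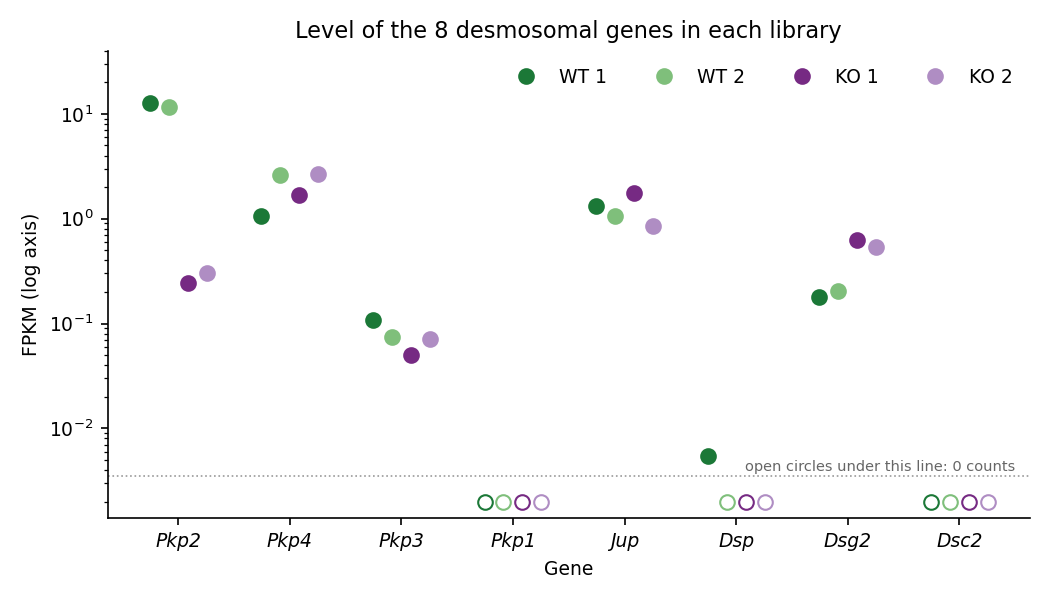
FPKM (log axis) of the 8 genes in WT 1, WT 2, KO 1 and KO 2, one filled circle per library, with libraries at 0 counts as open circles under the dotted line. Pkp2 stands at 12.8 and 11.7 in WT and at 0.245 and 0.307 in KO, Dsg2 is higher in both KO libraries, Pkp4 and Jup overlap, and Pkp1 and Dsc2 are at 0 throughout.

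The order of the 8 genes by FPKM differed between the genotypes. In WT it ran from Pkp2 through Pkp4 (1.07 and 2.59 FPKM) and Jup (1.32 and 1.06 FPKM) to Dsg2 (0.179 and 0.206 FPKM), Pkp3 (0.107 and 0.0746 FPKM) and Dsp. Pkp4 and Jup overlapped in this order, and the other neighbours did not. In KO, Pkp4 (1.70 and 2.67 FPKM) and Jup (1.75 and 0.845 FPKM) overlapped again and came first, followed by Dsg2 (0.626 and 0.536 FPKM), Pkp2 and Pkp3 (0.0503 and 0.0710 FPKM). Pkp2 was thus 9.71 and 11.04 times the level of Jup in WT, while Jup was 7.17 and 2.76 times the level of Pkp2 in KO. Dsg2, at a small part of the level of Pkp2 in WT, was 2.56 and 1.75 times its level in KO.

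The gene lengths behind the FPKM were longer than the principal transcripts, at 6110 against 2918 bases for Pkp2 and 9346 against 3205 bases for Jup. With the principal lengths, the WT mean of Pkp2 was 7.4 instead of 10.3 times that of Jup and 5.7 instead of 6.68 times that of Pkp4. The ratio to Pkp4 differed more between the WT libraries, at 12.0 in WT 1 and 4.49 in WT 2. In KO, the values so computed were 0.512 and 0.642 for Pkp2 and 0.964 and 0.826 for Dsg2, in the same order as before.

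The rest of the desmosome was nearly silent. Of 10 further genes that encode desmosomal cadherins, plakins and the desmosome-associated membrane protein Perp, 8 had no count in any library, and none was high enough to be tested. Perp had 9 and 8 counts in WT 1 and WT 2 and 3 and 4 in KO 1 and KO 2. Periplakin (Ppl), a plakin of the cornified envelope, had 7 counts in KO 1 and none elsewhere. The WT libraries therefore held Pkp2, Jup and Pkp4 transcripts with little Dsg2 and without a detectable desmocollin, and which cells of the culture they came from was not tested.

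Genes related to junctions were examined beside the set, in 7 lists of 81 genes of which 47 were tested and 21 had no count. The lists hold the 10 desmosomal genes just described, intermediate filaments, relatives of p120 catenin, adherens junctions, tight and gap junctions, plakophilin partners (with G3bp1 among them) and targets of beta-catenin. By edgeR's quasi-likelihood test 0 of the 47 were called, with 13 higher and 1 lower in KO at an unadjusted p under 0.05. The DESeq2 Wald test called 6 of them, all higher (1.46% of all tested genes were called in either direction), the edgeR exact test 7, all higher (1.84%), and the fit with a replicate block 11 higher and 1 lower (5.35%). The KO values both exceeded the WT values in 20 of the 47 genes and both fell short of them in 5, beside 20.0% and 16.9% of all tested genes. With an absolute log2 fold change over 1 they did so in 13 and 2, beside 5.18% and 1.59%. The median log2 fold change of the 47 genes was 0.36 against 0.041 over all tested genes.

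Adherens junctions join cells through classical cadherins, which catenins tie to actin. Of 12 tested genes, 5 had both KO libraries above both WT libraries, 4 of them with a log2 fold change over 1. None had both below, and the median log2 fold change was 0.55. Over all tested genes, the shares were 20.0% above, 5.18% above and past this fold, and 16.9% below. N-cadherin (Cdh2), a cadherin of mesenchymal and neural cells, had 22 and 26 counts in WT 1 and WT 2 and 246 and 183 in KO 1 and KO 2. The log2 fold change was 2.91 (SE 0.354; edgeR adjusted p = 0.216). Cdh11, a cadherin of fibroblasts and osteoblasts, had 98 and 124 against 637 and 515 counts, and Cdh3 (P-cadherin) had 15 and 15 against 83 and 73. The stromal markers given above were higher in the same libraries, and their part in these cadherins was not tested. The catenins that bind cadherins had smaller differences, with a log2 fold change of 0.11 for Ctnnb1 (beta-catenin) and 0.19 for Ctnnd1 (p120 catenin).

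Of 12 tested tight and gap junction genes, 7 had both KO libraries above both WT libraries, 5 of them past the fold limit. None had both below, and the median log2 fold change was 0.83. Of all tested genes, 20.0% were above, 5.18% above and past the limit, and 16.9% below. Gja1, the gap junction protein connexin 43, had 37 and 54 counts in WT 1 and WT 2 and 172 and 227 in KO 1 and KO 2. The log2 fold change was 1.87 (SE 0.347; edgeR adjusted p = 0.269). Jam3, an adhesion molecule of endothelial and other cells, had 12 and 9 against 66 and 46 counts. Gjc1 (connexin 45) had 12 and 9 against 30 and 34. The stromal markers lay higher in the same libraries here too.

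Desmosomes anchor intermediate filaments. Of 10 tested intermediate filament genes 0 were called (median log2 fold change -0.15). Both KO libraries were above the WT libraries in 2 and below them in 4, beside 20.0% and 16.9% of all tested genes. Each direction had 2 past the fold limit, beside 5.18% and 1.59%. Desmin (Des), the filament of muscle, had 70 and 88 counts in WT 1 and WT 2 and 347 and 427 in KO 1 and KO 2. The log2 fold change was 2.03 (SE 0.279; edgeR adjusted p = 0.216). Nestin (Nes), a filament of progenitor and mesenchymal cells, had 33 and 34 against 151 and 144 counts. The stromal markers were higher in the same libraries, and their part in Des and Nes was not tested. Krt18, a keratin of simple epithelia, had 39 and 30 against 10 and 19 counts. The log2 fold change was -1.501 (SE 0.483; edgeR adjusted p = 0.592). Vimentin (Vim), the main filament of macrophages, had 29139 and 31983 against 25972 and 32477 counts. Vim had the highest counts of the list by far, and its level in CPM was lower in both KO libraries than in both WT libraries, with a log2 fold change of -0.32.

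**Figure D4:**
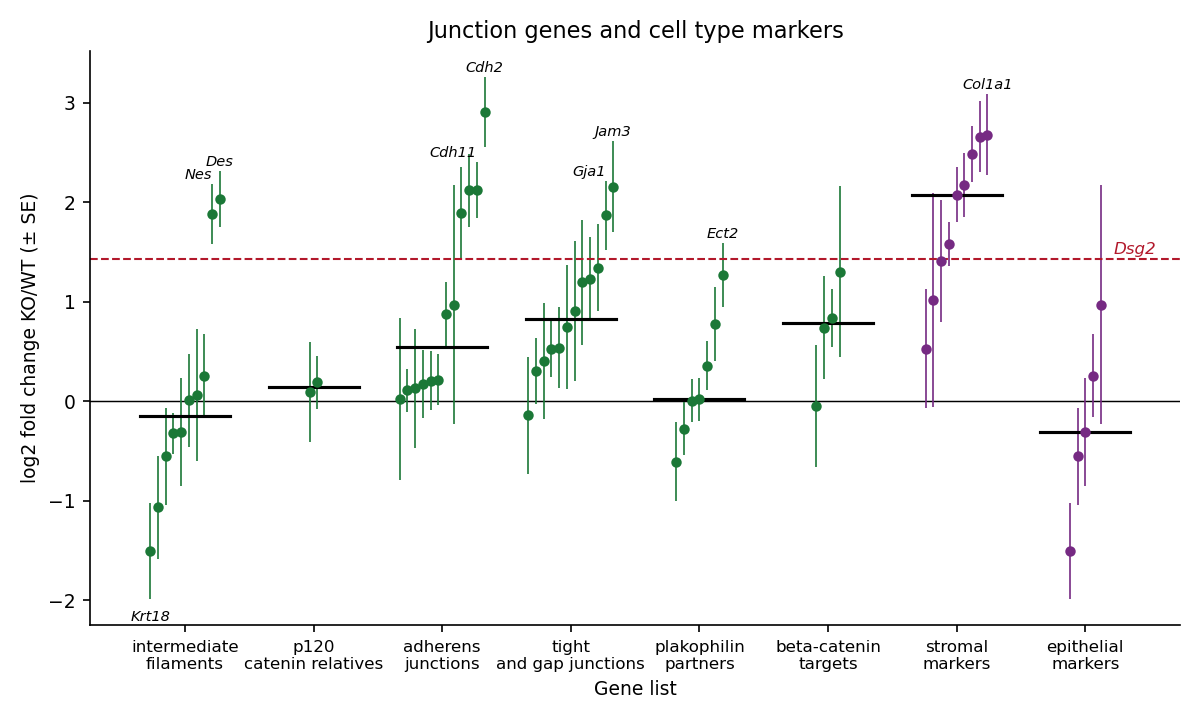
Log2 fold change of KO against WT (± SE) of the tested genes of 6 junction lists (green) and of the stromal and epithelial markers (purple), with the median of each list as a black bar and the value of Dsg2 as a dashed line. The medians of the junction lists run from -0.15 for intermediate filaments to 0.83 for tight and gap junctions, and those of the markers are 2.08 (stromal) and -0.31 (epithelial).

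Proteins known to bind or act with plakophilins were read from 7 genes, all tested. Of these, 3 had both KO libraries above and 1 both below the WT libraries, beside 20.0% and 16.9% of all tested genes. The number above and past the fold limit was 1, beside 5.18% of all tested genes, and the median log2 fold change was 0.02. Ect2, the exchange factor for RhoA in cell division that plakophilin 4 is known to work with, had 45 and 47 counts in WT 1 and WT 2 and 148 and 116 in KO 1 and KO 2. The log2 fold change was 1.27 (SE 0.323; edgeR adjusted p = 0.387). The RNA-binding partners had log2 fold changes of 0.02 (Fxr1) and 0.36 (Pabpc1), and the translation factor Eif4a1 one of -0.27. The kinase gene Prkca, whose product plakophilin 2 is known to bind, had a log2 fold change of 0.77, and Rhoa one of 0.01. Of the 2 tested relatives of p120 catenin, neither separated the genotypes (median log2 fold change 0.14). Of 12 targets of beta-catenin, 4 were tested. Both KO libraries were above both WT libraries in 3 of them, beside 20.0% of all tested genes. Nkd1, a target that restrains Wnt signalling, had 13 and 2 counts in WT 1 and WT 2 and 28 and 16 in KO 1 and KO 2, with a log2 fold change of 1.301 (SE 0.859).

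Genes around Pkp2 on chromosome 16 were examined because position was not used to choose the set. Within 1 Mb on either side lay 32 other genes, of which 17 were tested, 6 before Pkp2 and 11 after it. None was called by edgeR's quasi-likelihood test, by the Wald test or by the exact test. These tests called 0.0%, 1.46% and 1.84% of all tested genes. By the quasi-likelihood test 1 neighbour (Mcm4, higher in KO) had an unadjusted p under 0.05, beside 823 of all 12418 tested genes. The log2 fold changes of the neighbours ran from -0.66 (Ube2v2) to 0.63 (Mcm4), with a median of 0.12. None with separated libraries was past the fold limit, beside 5.18% (higher) and 1.59% (lower) of all tested genes. The nearest tested gene before Pkp2 was Spidr, a DNA repair scaffold 66.5 kb away, with 305 and 308 counts in WT 1 and WT 2 and 447 and 392 in KO 1 and KO 2 (log2 fold change 0.20, SE 0.226). The nearest after it was Yars2, a mitochondrial tRNA synthetase 30.3 kb away, with 198 and 234 against 215 and 349 counts (log2 fold change 0.12, SE 0.309).

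**Figure D5:**
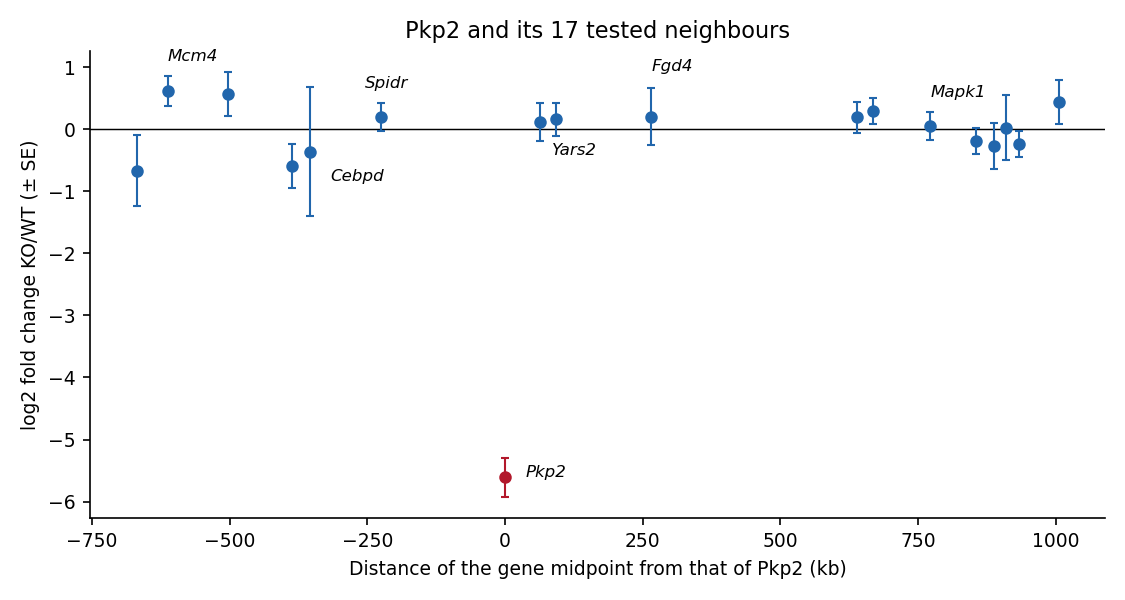
Log2 fold change of KO against WT (± SE) of Pkp2 (red) and its 17 tested neighbours (blue) by the distance of the gene midpoints in kb. The neighbours lie between -0.66 and 0.63 and Pkp2, which was chosen for its low value, at -5.61.

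The 5 genes whose centred log2 CPM over the 4 libraries lay closest to the profile of Pkp2 were Gm12220, S100a9, Vmn2r96, Retnlg and Gm13767, at Euclidean distances of 0.692 to 2.30. All had fewer counts than Pkp2 in WT and lay on other chromosomes, except Retnlg, which lies on chromosome 16 with a start at 48872608. Gm12220 had 62 and 41 counts in WT and none in KO, Vmn2r96, a vomeronasal receptor gene, had 33 and 43 and none, and Gm13767 had 17 and 106 against 0 and 2. S100a9, a subunit of the neutrophil protein calprotectin, had 91 and 82 counts in WT 1 and WT 2 and 2 and 1 in KO 1 and KO 2, and Retnlg, a resistin-like gene of neutrophils, had 99 and 71 against 3 and 9. In CPM all 5 were far below Pkp2 in WT. In FPKM, where Pkp2 stood at 12.8 and 11.7 in WT, Gm12220 stood at 21.2 and 14.08, Retnlg at 9.58 and 6.90 and S100a9 at 7.35 and 6.65.

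Because 2 of these genes are neutrophil genes, 13 neutrophil markers were read, a list drawn up after S100a9 and Retnlg had been seen. Without these 2 genes, the other 11 summed to 78.5 and 120 CPM in WT and 82.4 and 101 CPM in KO, and the groups overlapped. Most of each sum was Csf3r, at 48.1 and 76.2 CPM in WT and 59.6 and 62.1 CPM in KO. Of the 7 tested, S100a9 and Retnlg were in the list because they were low in KO like Pkp2. Among the 5 others, 1 (S100a8) had both KO libraries below both WT libraries and 1 both above. The shares over all tested genes were 16.9% and 20.0%. S100a8, the other subunit of calprotectin, had 235 and 242 counts in WT 1 and WT 2 and 133 and 209 in KO 1 and KO 2, and Csf3r, the receptor of granulocyte colony-stimulating factor, had 781 and 1215 against 1111 and 1223. Mpo and Elane, which are transcribed in neutrophil precursors, had no count in any library, and Ly6g, a surface marker of mature neutrophils, had 1 count in WT 1 and none elsewhere. Over WT 1, WT 2, KO 1 and KO 2, Lcn2 had 9, 247, 14 and 276 counts, Cxcr2 had 29, 1, 25 and 4, Ltf had 31, 5, 9 and 8, and Camp had 0, 8, 0 and 5. The tested marker with both KO libraries above both WT libraries was Mmp8, a neutrophil collagenase, at 188 and 193 against 244 and 260 counts. The part of neutrophils in the level of Pkp2 was not tested.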

How the data were processed

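RNA of 4 macrophage libraries (2 WT, 2 KO) was analysed. The authors filtered reads with Seqtk, aligned them with HISAT2 2.0.4 and quantified genes with StringTie 1.3.3b, and deposited raw counts and FPKM per gene. The processing notes name mm39, but the deposited positions are those of GENCODE M21 on GRCm38 for 27682 of 34267 shared identifiers, so positions are given on GRCm38. Whether strand was used in counting is not given in the sources used here. No deposited column held the authors' own comparisons.

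The model was fitted to the counts in edgeR 4.0.16 (R 4.3.3). A gene was kept by filterByExpr (minimum count 10, minimum total 15), which left 12418 of 17991 genes with any count, and libraries were scaled by TMM (factors 0.942 to 1.11). Genotype was the only model term, tested two-sided with glmQLFit and glmQLFTest and Benjamini-Hochberg adjustment. The limits were an adjusted p of 0.05 and an absolute log2 fold change of 1. SEs came from the F statistic, and SDs are over 2 libraries. Ratios by replicate number are of CPM. Profile distances used log2(CPM + 0.1). The code was tested on simulated counts.

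The 8 genes and all lists were chosen with earlier results of these data known. Named were the 8 genes, G3bp1, up to 3 genes per list with the largest fold change past the limit and separated libraries, the nearest tested neighbours of Pkp2 and the 5 most alike profiles. Other genes, such as Col23a1, Cdk5rap1, Pdgfra, S100a8, Itgam, Vim and Mcm4, were named after their values were seen. The alternatives were DESeq2 1.42.0 size factors and its Wald test, the edgeR exact test, no filter, a correction for gene length (loess, span 0.5), a replicate block, and each library left out.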

Additional observations from a re-analysis of the deposited data

How the results depend on the processing

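Of the 12418 tested genes, 0 passed both limits in the quasi-likelihood fit, while the DESeq2 Wald test called 181 (136 higher and 45 lower in KO) and the edgeR exact test 229 (193 and 36). Of the junction genes, the Wald test called 6 and the exact test 7. With a replicate block the fit called 664 genes (494 higher, 170 lower) and 12 junction genes, and with a replicate block and a correction for gene length 368 (267 higher, 101 lower) and 8. The cause of these differences between tests was not tested. Same-numbered libraries deviated together (correlation 0.71), but the labels do not say what a number marks, so the samples share only a number. With each library left out in turn, the lone library of a genotype being assumed to vary like the other genotype, 0 tested genes and 0 junction genes were called, and the neighbours of Pkp2 called were 0 in every alternative run. The log2 fold change of Pkp2 ran from -5.87 (without KO replicate 2) to -5.39 (without KO replicate 1) over all alternatives, and that of Dsg2 from 1.25 to 1.52. Those of Jup (-0.56 to 0.33) and Pkp4 (-0.39 to 0.87) changed sign, the latter also with the length correction (-0.07) and with block and length together (-0.03). The ratio of Pkp2 to Jup in WT was 10.3, and 7.4 with principal transcript lengths, a setting chosen after seeing the data. Depth limited Pkp3, Dsp, Pkp1 and Dsc2, which were at or near the floor of 3 counts or below the filter.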
